A study of Mus musculus with 20 samples.

Results

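The genes described here encode the proteins of the mitochondrial ribosome (mitoribosome). They were taken from the RNA-seq table of a study of mouse embryonic stem cells (ESC) as all genes annotated protein_coding whose symbol begins with Mrpl or Mrps followed by a digit. Of 29692 genes in the table, 82 matched by symbol and 78 of these were protein-coding; the other 4 were processed pseudogenes. Of the 78, 51 encode large-subunit proteins and 26 small-subunit proteins. The remaining gene, Mrps36, carries the name of a ribosomal protein but encodes a component of the 2-oxoglutarate dehydrogenase complex. All 78 had a mean value over the groups of at least 100 (lowest 148), so no filter on low values removed a member.

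ESC are pluripotent cells derived from the early embryo and kept in culture. They were grown with 10% FBS and leukemia inhibitory factor (LIF) and separated by flow cytometry into state 1 (Nanog high, Sox2 high), state 2 (Nanog low, Sox2 high) and state 3 (Nanog low, Sox2 low), beside the unsorted total population. Nanog and Sox2 are transcription factors of pluripotency. No cell line, treatment or genetic change is named in the labels, and all 4 groups share the culture medium. Each group had 3 rRNA-depleted RNA-seq libraries, merged by the authors into 1 normalized value per gene and group, so no spread between libraries can be given and no test over libraries was possible.

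Mitoribosomes translate the few messenger RNAs of the mitochondrial genome, all of which encode subunits of the respiratory chain and ATP synthase. Their rRNAs are made inside the mitochondrion, whereas every protein is encoded in the nucleus, translated in the cytosol and imported, so that nuclear and mitochondrial gene expression must be matched. Part of the proteins descend from the bacterial ribosome, and others were acquired in mitochondria.

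Column totals of the table were 16.9 to 17.7 M (value units), which correspond to about 48.0 to 60.4 M reads or read pairs per group when the commonest low value of a column is taken as the worth of 1 read. At that worth the least covered member rested on about 378 reads. The sort followed its labels: Nanog RNA had values of 4145, 743 and 440.0 in states 1, 2 and 3, and Sox2 RNA 4155, 3167 and 1306. Of the other 8 pluripotency genes checked, Zfp42 and Esrrb were called lower at each step, and Dppa5a in state 3 against states 1 and 2. Pou5f1, the defining factor of ESC identity, had 13810, 10275 and 9826 in states 1 to 3. It was not called for state 3 against state 1 (log2 -0.49), with a probability of 0.931 against the limit of 0.95 set out below. Tdgf1, Utf1, Sall4 and Lin28a were not called either, and Lin28a had a higher value in state 3 than in state 1 (log2 0.51). The authors' deposited table gives each gene an EBSeq probability for every pattern of equal and unequal groups. A difference between a pair of groups was called where the probabilities of the patterns that separate them summed to 0.95 or more.

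Between state 1 and state 3, the called mitoribosomal protein genes were all lower in state 3, and most members were not called. Of the 78 members, 27 were called lower and 0 higher, while 51 were not called. Over all genes, 9.01% were called lower and 11.4% higher. Among the 9953 genes with a mean value of at least 100, a limit that every member reached, 21.7% were called lower and 20.8% higher. That set has no upper limit and was not matched to the members' levels. The share of members called lower, 34.6%, was above that of this set, and no member stood on the other side. The members' median log2 ratio, on the value plus 1, was -0.24 (quartiles -0.35 and -0.10), beside -0.059 for genes with a mean of at least 100 and -0.0049 for genes with a mean of at least 5. Ratios below 0 were seen in 69 of 78 members (88.5%), against 55.4% of genes with a mean of at least 100. The share was higher still among cytosolic ribosomal proteins (100%) and nuclear respiratory chain subunits (95.2%), described further below. The differences were small: the summed value of all 78 members was 54024 in state 1, 47491 in state 2, 44495 in state 3 and 50918 in the total population, so that state 3 fell by 17.6% against state 1.

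**Figure D1:**
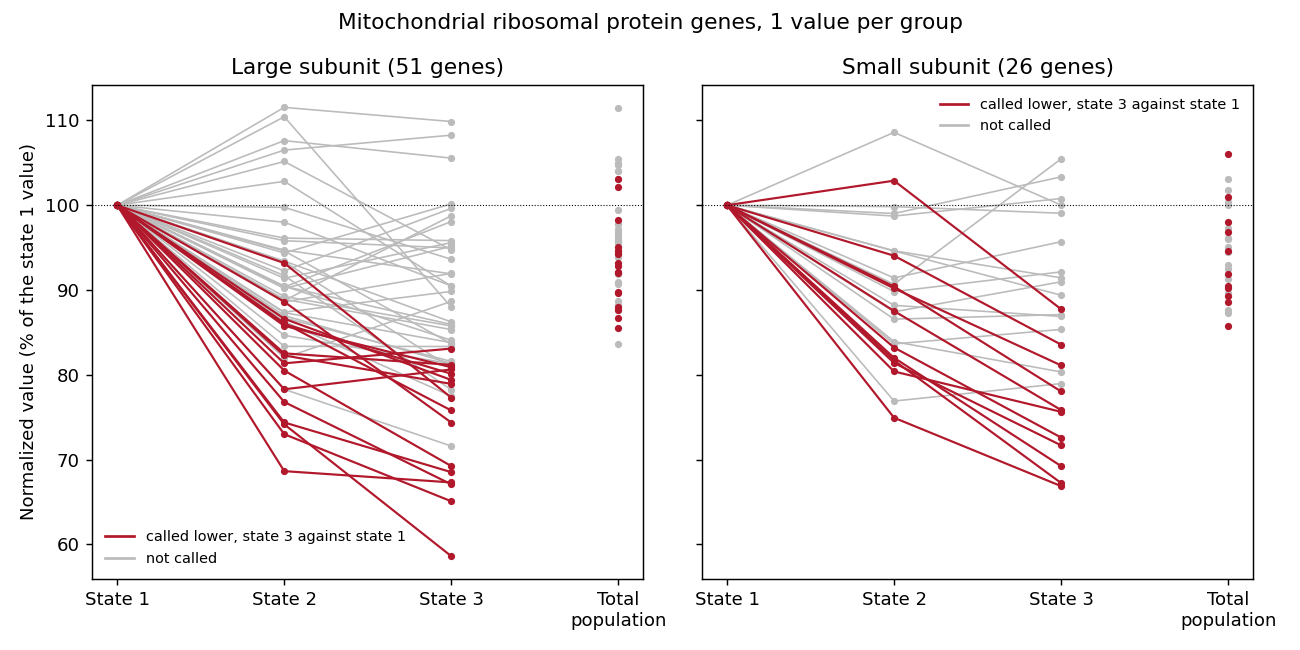
Normalized value of each of the 51 large-subunit (left) and 26 small-subunit (right) genes as a percentage of its own state 1 value (vertical axis) in states 1, 2 and 3, joined by lines, and in the total population, with no error bars since the table holds 1 value per group. Red marks the 27 members called lower in state 3 against state 1, 16 in the large and 11 in the small subunit; the lowest line is Mrpl15, at a fold of 0.586 of state 1.

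Mrpl15, a conserved large-subunit protein that binds rRNA (ENSMUSG00000033845.13; chromosome 1, 4773198 to 4785750 in GRCm38), was the member with the largest difference. Its values were 3487 in state 1, 2586 in state 2, 2044 in state 3 and 3128 in the total population. State 3 thus held the lowest value and the unsorted cells lay between state 1 and state 2. Mrpl15 was the only member called in all 3 comparisons between states, with log2 ratios of -0.43 from state 1 to 2, -0.34 from state 2 to 3 and -0.77 from state 1 to 3, and with a summed posterior of at least 0.9999 in each. Counting error alone gives this last ratio a standard error of 0.024.

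Further large-subunit genes had lower RNA values in state 3 than in state 1. Among them, Mrpl24, Mrpl4, Mrpl14 and Mrpl36 encode proteins with bacterial relatives. Mrpl24, which lies near the exit of the peptide tunnel (chromosome 3, 87918131 to 87923450), had values of 907, 662, 590.1 and 794 in state 1, state 2, state 3 and the total population (log2 -0.62 for state 3 against state 1). Mrpl4, whose bacterial counterpart lines the tunnel (chromosome 9, 21001252 to 21008839), had 926, 711, 621 and 792 in the same order (log2 -0.58). Mrpl14, at the face that meets the small subunit (chromosome 17, 45685722 to 45698495), had 202, 139, 136 and 175 (log2 -0.57), and had the fewest counts of the called members. In all of these state 1 was highest and state 3 lowest, with the total population between state 1 and state 2. Mrpl36, a short conserved protein, had 341, 253, 233 and 321 (log2 -0.54). The mitochondria-specific Mrpl39 had 889, 716, 616 and 874 (log2 -0.53), the total population lying close to state 1. Mrpl50, also mitochondria-specific, had 764, 677, 568 and 726 (log2 -0.43). The remaining 9 large-subunit genes called lower in state 3 against state 1 were Mrpl10, Mrpl17, Mrpl21, Mrpl35, Mrpl37, Mrpl42, Mrpl45, Mrpl49 and Mrpl58, with log2 ratios from -0.40 for Mrpl17 to -0.27 for Mrpl49. They include Mrpl10, of the stalk that recruits translation factors, Mrpl45, which anchors the ribosome to the inner membrane, and Mrpl58, a peptidyl-tRNA hydrolase that rescues stalled ribosomes.

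In the small subunit 11 genes were called lower in state 3 against state 1. Mrps15, a conserved protein of the body of the subunit (chromosome 4, 126046928 to 126055536), had values of 450.4 in state 1, 337 in state 2, 301 in state 3 and 407 in the total population (log2 -0.58). Mrps31, a mitochondria-specific protein (chromosome 8, 22410449 to 22429669), had 857, 700.4, 576 and 811 (log2 -0.57). Mrps24, the relative of a bacterial protein at the messenger RNA entry (chromosome 11, 5703982 to 5707701), had 534, 438, 370 and 458 (log2 -0.53). Mrps14, a conserved protein of the head (chromosome 1, 160195215 to 160201186), had 689, 560.5, 494 and 623 (log2 -0.48). In these 4 genes each successive state had the lower value, and the total population lay between state 1 and state 2. Mrps2, Mrps5, Mrps9, Mrps17, Mrps25, Mrps27 and Mrps35 made up the remaining 7, from -0.46 for Mrps2 to -0.19 for Mrps25.

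**Figure D2:**
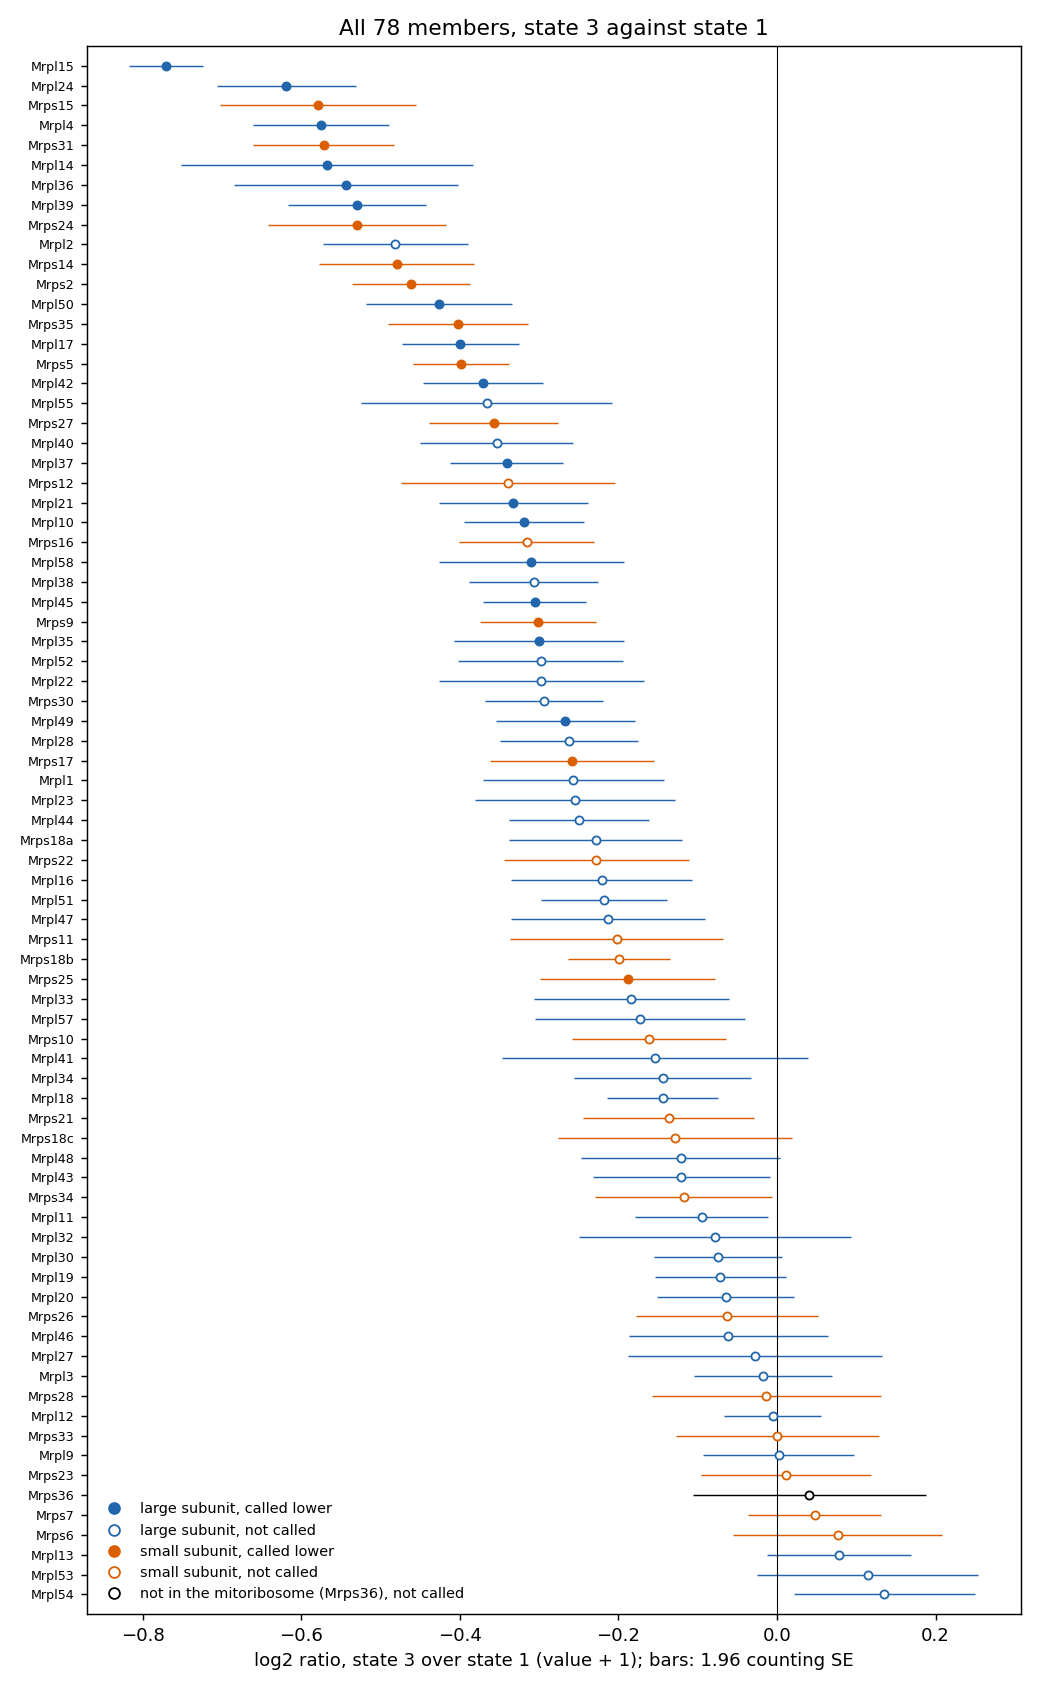
Log2 ratio of state 3 over state 1 on the value plus 1 (horizontal axis) for each of the 78 members (vertical axis), ordered by the ratio. Bars are 1.96 counting standard errors and do not cover the spread between libraries; filled points are the 27 members called lower, and the ratios run from -0.77 for Mrpl15 to 0.14 for Mrpl54.

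At the other end of the order lay members with nearly equal values in all 3 states. Mrpl12, the stalk protein, had 1452 in state 1, 1339 in state 2 and 1446 in state 3, and Mrps28 had 263, 262 and 260.1. The highest ratio was that of Mrpl54, with 401, 447 and 440.3 (log2 0.14), and it was not called. These 3 genes were chosen after their values were seen. For 23 members the patterns with all 3 states equal held at least 0.95 of the probability. Among genes with a mean of at least 100, 23.7% reached that limit, against 29.5% of the members.

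Both subunits held called members. In state 3 against state 1, 16 of 51 large-subunit genes and 11 of 26 small-subunit genes were called lower, with medians of -0.25 and -0.22, and the summed value fell by 17.9% and 17.4%. Of the 31 large-subunit genes with a bacterial homologue 9 were called (median -0.23), and of the 20 without one 7 were called (median -0.28). Of 16 small-subunit genes with a bacterial homologue 7 were called (median -0.28), and of 10 without one 4 were called (median -0.19). No difference between these classes was tested. Symbol and subunit do not always match: Mrps30 and Mrps18a, counted here in the large subunit where their proteins are found, had values of 1103, 956 and 900 and of 498, 443 and 425 in states 1 to 3 and were not called. Mrps36, outside the mitoribosome, had 248, 273 and 256.

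The step from state 1 to state 2, in which Nanog falls while cells remain sorted as Sox2-high, held more calls than the step from state 2 to state 3. In state 2 against state 1, 16 of 78 members were called lower and 0 higher, beside 6.33% of all genes called lower and 7.11% higher, and 15.6% and 13.3% of genes with a mean of at least 100. The members' share called lower was 20.5%. Their median log2 ratio was -0.17, beside -0.035 for genes with a mean of at least 100; after scaling to the column totals it was -0.10, with the median gene (mean of at least 5) at 0.064. The largest falls were those of Mrpl14 (log2 -0.54), Mrpl24 (-0.45), Mrpl15 (-0.43), Mrpl36 (-0.43) and Mrps15 (-0.42), followed by Mrpl58 (-0.35), Mrps35 (-0.31), Mrpl39 (-0.31), Mrpl49 (-0.30) and Mrps14 (-0.30). Of the 16 genes 13 belonged to the large and 3 to the small subunit. Exchanging state 1 and the total population in the inferred order of the patterns ended 5 of these calls (Mrpl10, Mrpl45, Mrpl49, Mrps14 and Mrps35, leaving 11); in state 3 against state 1 it ended 4 (Mrpl10, Mrpl49, Mrps24 and Mrps35) and added Mrpl33, leaving 24.

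In state 3 against state 2, where both Sox2 and Nanog fall further, 5 of 78 members were called lower and 0 higher. That share, 6.41%, lay near the background: 3.19% of all genes were called lower and 5.41% higher, and 7.83% and 10.6% of genes with a mean of at least 100. The median log2 ratio was -0.078, beside -0.026; after scaling to the upper quartile it was -0.13, with the median gene (mean of at least 5) at -0.054. The 5 genes were Mrpl15, Mrpl33 (values of 386, 426, 339 and 398 in state 1, state 2, state 3 and the total population), Mrpl42 (1091, 1017, 843 and 1125), Mrpl50 and Mrps25 (480.2, 494, 421 and 509). Mrpl33 and Mrps25 were highest in state 2 among the 3 states. Probabilities summed over the members gave 22.8 of 78 genes to state 1 apart from equal states 2 and 3, 9.81 to state 3 apart from equal states 1 and 2, 5.12 to all 3 states apart, and 0.069 to state 2 apart from equal states 1 and 3. These are 29.2%, 12.6%, 6.56% and 0.0886% of the members, beside 25%, 14.4%, 15.7% and 1.05% of genes with a mean of at least 100. The largest part, 40.2 genes or 51.6%, went to all 3 states equal, beside 43.9% of genes with a mean of at least 100. Mrpl14, Mrpl35, Mrpl36, Mrpl37, Mrpl49, Mrpl58 and Mrps35 reached 0.95 for state 1 apart from equal states 2 and 3, and Mrpl15 for all 3 apart.

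Against the unsorted total population, state 1 had 0 members called in either direction, beside 1.27% of all genes called lower and 0.707% higher, and 2.58% and 1.91% of genes with a mean of at least 100; since the table holds no values per library, no unadjusted p-value or second tool exists for this count. State 1 had the higher value in 62 of 78 members, with a median log2 ratio of 0.080, or 0.035 after scaling to the column totals. State 2 had 11 members called lower and 0 higher, beside 5.3% of all genes lower and 5.82% higher, and 13.2% and 11% of genes with a mean of at least 100. State 3 had 24 lower and 0 higher, beside 8.32% of all genes lower and 10.8% higher, and 20.2% and 19.5% of genes with a mean of at least 100. The total population contains cells of the sorted states, and the comparisons between states share their groups, so these counts are not independent of one another.

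Ratios of like size received unlike posteriors. Mrpl35, with 528, 436 and 429 in states 1 to 3 (log2 -0.30 for state 3 against state 1), was called, whereas Mrpl2, with 780.1, 611 and 558 (log2 -0.48), reached a summed posterior of 0.690, and Mrps22, with 434, 363 and 370.4 (log2 -0.23), reached 0.000 to 3 decimals. In the authors' deposited table the score for any difference among the 4 groups was under 0.001 for 5 members, Mrps22, Mrpl47, Mrpl41, Mrps18c and Mrps33. These genes were picked out after their values were seen, and the spread between libraries that enters the score is not in the table. Of the 51 members not called in state 3 against state 1, 30 had a ratio beyond 1.96 counting standard errors and 21 lay within them. All 27 called members lay beyond them. Mrpl40 (0.947), Mrpl33 (0.949) and Mrpl57 (0.941) lay just under the threshold, and Mrps17 (0.955), Mrps25 and Mrps24 (both 0.963) just above it.

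**Figure D3:**
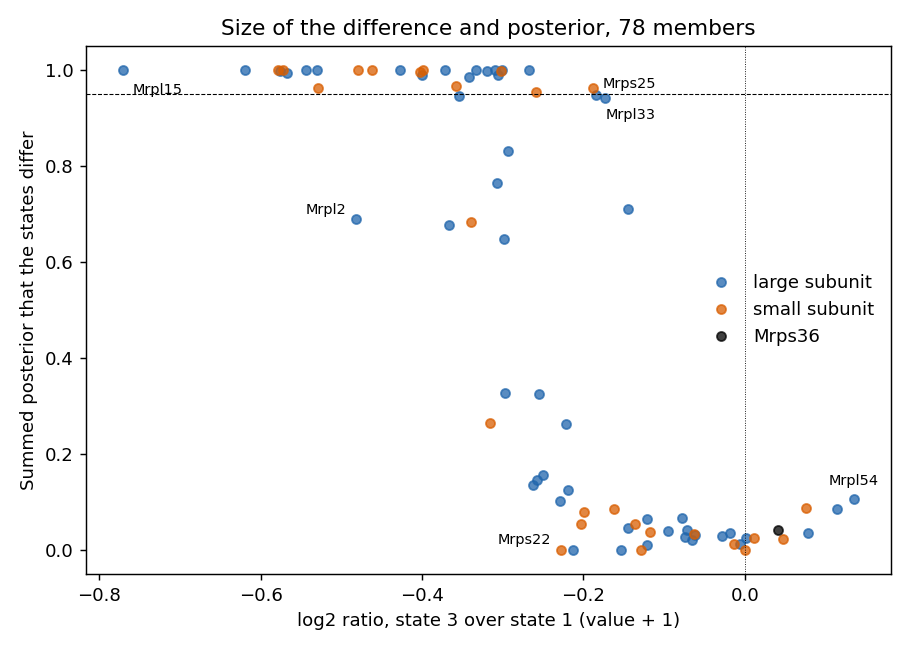
Summed posterior that state 3 and state 1 differ (vertical axis, from 0 to 1) against the log2 ratio of state 3 over state 1 (horizontal axis) for the 78 members, coloured by subunit; the dashed line is the threshold of 0.95. Members with ratios between -0.5 and -0.2 lie both above and below the line, among them Mrpl2 at 0.690.

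The other components of mitochondrial translation were given by lists chosen with earlier results of these data known. Of 5 mitoribosomal proteins outside the symbol rule, Dap3, Ptcd3 and Gadd45gip1 were called lower in states 2 and 3 against state 1. Chchd1 and Aurkaip1 were called in neither. Among genes with a mean of at least 100, 15.6% were called lower in state 2 and 21.7% in state 3 against state 1. Dap3, a GTP-binding small-subunit protein, had values of 1309, 1049.8 and 997 in states 1 to 3 (log2 -0.39 for state 3 against state 1). Ptcd3, a pentatricopeptide-repeat protein of the small subunit, had 2531, 2223 and 2043 (log2 -0.31). Gadd45gip1, of the large subunit, had 853, 698 and 626 (log2 -0.45). Among 15 mitochondrial translation factors 3 were called lower in state 3 against state 1 and 0 higher (median -0.22), a share of 20% that lay near the 21.7% of genes with a mean of at least 100. They were Mtrf1, a release factor (281, 223 and 164, log2 -0.78), Oxa1l, the insertase that receives nascent chains at the inner membrane (1283, 1004 and 956, log2 -0.42), and Gfm2, a recycling factor (log2 -0.22). Among 25 assembly factors, which modify rRNA or join proteins to it, 6 were called lower and 0 higher (24%, also near that background; median -0.28), with Trmt2b at -0.78, Ngrn at -0.70, Rbfa at -0.59 and Mettl17 at -0.57 on the log2 scale.

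Among 18 genes of mitochondrial transcription and RNA processing 8 were called lower in state 3 against state 1 and 0 higher (44.4%, beside 21.7% of genes with a mean of at least 100; median -0.24). The largest falls were those of Slirp, which stabilizes mitochondrial messenger RNA (log2 -0.48), Fastk (-0.48), Hsd17b10, a subunit of mitochondrial RNase P (-0.47), and Polrmt, the mitochondrial RNA polymerase (-0.46). Of 17 protein import genes 3 were called lower (17.6%, below that background), Timm17b (-0.40), Timm44 (-0.35) and Hspa9 (-0.16), and 1 higher, Pmpca, a subunit of the peptidase that removes import signals (0.28). Of 10 measured nuclear regulators 2 were called lower in state 3 against state 1 and 0 higher (20%, near that background). Mycn, a Myc family factor, rose from 2764 in state 1 to 3818 in state 2 and fell to 2133 in state 3, and Max, the partner of Myc factors, fell from 1339 to 1073 and had 1011 in state 3. Nrf1 and Gabpa, factors known for nuclear mitochondrial genes, had 1154, 1142 and 1099 and 1762, 1613 and 1472 in states 1 to 3 and were not called, as were Yy1 (2205, 2140.2 and 2157) and Myc (1441, 1619 and 2177).

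The rRNA partners of these proteins had their highest values in state 3. The mt-Rnr1 gene, the rRNA of the small subunit, had 76.6 in state 1, 109 in state 2, 684 in state 3 and 110.3 in the total population, and was called higher in state 3 against state 1 and against state 2 (log2 3.14 and 2.64). For mt-Rnr2, the rRNA of the large subunit, the values were 181, 200.3, 777 and 211, and it was not called (summed posterior 0.304 for state 3 against state 1). The libraries were depleted of rRNA before sequencing, and no value shows how completely each one was, so these are levels in the libraries and not in the cells.

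Nuclear respiratory chain subunits, whose partners the mitoribosome makes, and cytosolic ribosomal proteins are set beside the members without a test of the difference. Both lists were taken by symbol alone. The respiratory chain list also takes in symbols beginning with Atp5, of ATP synthase, and does not set isoforms apart. In state 3 against state 1, 37 of 84 respiratory chain genes and 11 of 82 cytosolic ribosomal protein genes were called lower and 0 higher in both lists, beside 27 of 78 members. These are 44%, 13.4% and 34.6%, so that, against 21.7% of genes with a mean of at least 100, the cytosolic share lay below the background. Ratios below 0 were nonetheless seen in 82 of 82 cytosolic genes and 80 of 84 respiratory chain genes, beside 69 of 78 members. The medians were -0.33 for the respiratory chain and -0.20 for cytosolic ribosomal proteins, beside -0.24 for the members. For genes with a mean of at least 100 the median was -0.059. In state 2 against state 1 the counts were 26, 1 and 16 lower with medians of -0.23, -0.10 and -0.17, and in state 3 against state 2 they were 6, 7 and 5 with medians of -0.10, -0.10 and -0.078, for respiratory chain, cytosolic ribosome and mitoribosome. In state 2 against state 1 the cytosolic share, 1.22%, lay below the 15.6% of genes with a mean of at least 100, and the respiratory chain share was 31%.

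**Figure D4:**
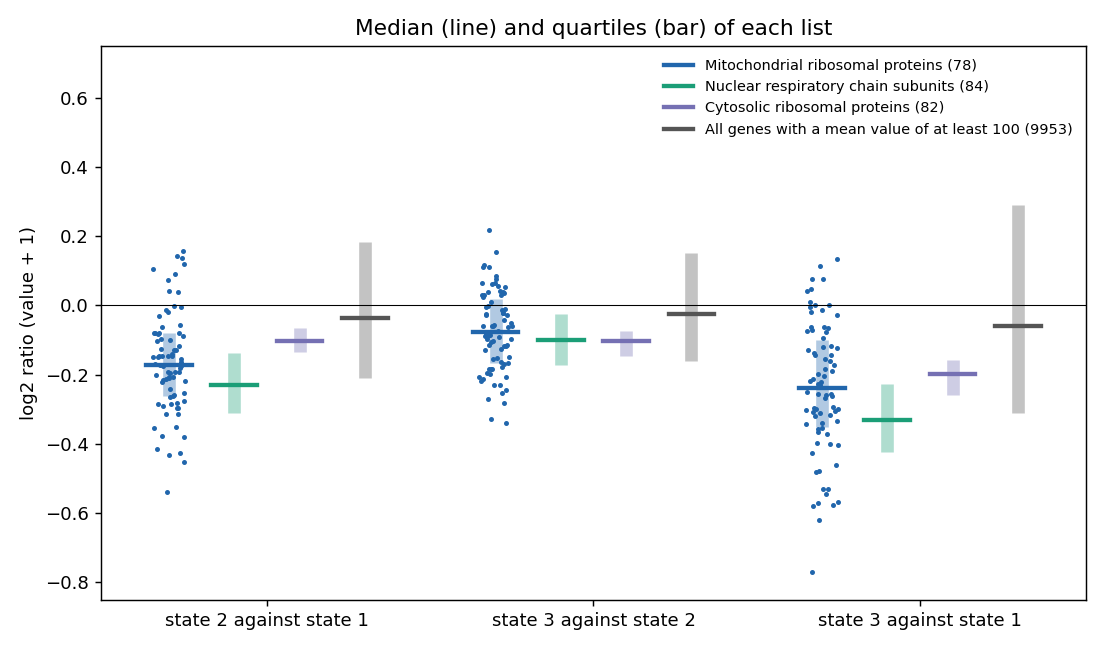
Median (line) and quartiles (bar) of the log2 ratio on the value plus 1 (vertical axis) in each comparison between states for the 78 mitochondrial ribosomal proteins (points), the 84 nuclear respiratory chain subunits, the 82 cytosolic ribosomal proteins and the 9953 genes with a mean of at least 100. In state 3 against state 1 the medians are -0.24, -0.33, -0.20 and -0.059 in that order.

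Markers of other cell types had higher values in state 3 than in state 1, with a mixed picture in state 2 against state 1. Of 12 fibroblast markers 11 were listed. Of these, 5 were called higher in state 3 against state 1 (Col1a1, Col1a2, Col3a1, Pdgfrb and Twist2). In that comparison 11.4% of all genes and 20.8% of genes with a mean of at least 100 were called higher. The summed value of the 11 was 177 in state 1, 282 in state 2, 1344 in state 3 and 289 in the total population. Col1a1 alone had 107 in state 2 and 827 in state 3, the highest value of the 11 in both. In state 2 against state 1 only Col3a1 was called, as higher, and 5 of the 11 had ratios below 0. The defining markers Dcn and Lum had 0 and 0.32 in state 1 and 2.09 and 0 in state 2. In state 3 they had 12.4 and 1.46. Of 10 primitive endoderm markers 7 were called higher in state 3 against state 1 and 0 lower, beside 11.4% and 9.01% of all genes. Their sums were 1745, 3076 and 8355 in states 1 to 3. Without Col4a1, the marker with the highest values in states 2 and 3, the sums were 1468, 1309 and 2601. In state 2 against state 1, 3 of these markers were called higher, Sox7 was called lower, and 4 of 10 had ratios below 0. Over all genes, 7.11% were called higher and 6.33% lower in state 2 against state 1. The part of other cell types in the lower values of the members was not tested. In these sorted bulk samples, fewer cells of a type and less RNA per cell cannot be told apart.

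Promoter sequences were searched for the letters of factors known for nuclear mitochondrial genes and for broadly acting ones. RefSeq windows (GRCm38.p6), from 250 bases before to 50 after a start, were matched by symbol for 69 of 78 members (75 windows; 66 genes had 1 start each). Mrpl4, Mrpl13, Mrpl15, Mrpl19, Mrpl38, Mrpl54, Mrps28, Mrps34 and Mrps35 had no entry. Letters were searched on both strands, and a match describes letters and not a bound factor. The letters CCGGAAG, the core bound by ETS factors such as GABP, stood in 26 of 69 members (37.7%), beside 8.86% of all 32851 windows and 23.2% of protein-coding genes with a mean of at least 100. They were found in 4 of the 24 members called lower in state 3 against state 1 that had a window and in 22 of the 45 that were not called. The letters AAGATGGC, of YY1, stood in 12 of 69 members (17.4%), beside 2.75% of all windows and 6.24% of those protein-coding genes, and here 7 of the 24 called members and 5 of the 45 uncalled ones held a match. The palindrome of NRF1 was found in 3 members (4.35%; 0.971% of all windows and 2.73% of those protein-coding genes), GGGCGG, of SP1, in 34 (49.3%; 35.7% of all windows and 73.6% of those protein-coding genes) and CACGTG, the E-box of Myc and Max, in 5 (7.25%; 7.15% of all windows and 12.7% of those protein-coding genes). The difference between called and uncalled members was noticed after the matches were counted and was not tested. Some windows, such as those of Mrpl24, Mrps31 and Mrpl14, belong to starts inside the RefSeq span of the gene.

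The 8 sense-strand YY1 matches all lay after the start, their first base 12 to 37 bases downstream of it, and 6 of the 8 genes were called lower in state 3 against state 1, all but Mrps7 and Mrps18a. Each site is shown with its flanks because of this shared position. The letters of the match contain ATG, and whether it is the start codon of these genes was not examined. The match is in capitals:
Mrpl37 (chr4:107066822-107066851, minus strand): ctgcacgggcaAAGATGGCggcgtccaggt
Mrpl35 (chr6:71823743-71823772, minus strand): aggcaggctgcAAGATGGCggcttccatct
Mrpl42 (chr10:95501904-95501933, minus strand): cagattgaagcAAGATGGCgagcgcgcggt
Mrps24 (chr11:5707652-5707681, minus strand): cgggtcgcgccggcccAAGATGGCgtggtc
Mrps7 (chr11:115604147-115604176, plus strand): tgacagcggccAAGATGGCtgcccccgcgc
Mrps27 (chr13:99344789-99344818, plus strand): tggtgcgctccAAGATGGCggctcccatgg
Mrps18a (chr17:46111004-46111033, plus strand): aggtgcgttccAAGATGGCggccctcaggg
Mrpl49 (chr19:6057721-6057750, minus strand): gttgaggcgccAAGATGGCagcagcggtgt
The values that go with these sites were log2 -0.34 for Mrpl37, -0.30 for Mrpl35, -0.37 for Mrpl42, -0.53 for Mrps24, -0.36 for Mrps27, -0.27 for Mrpl49, -0.23 for Mrps18a and 0.05 for Mrps7.

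Not all starts lie at the edge of the RefSeq span of the gene. The stretches shown for Mrpl24, Mrps31 and Mrpl14 lie inside the span, and those for Mrpl58, Mrps27 and Mrpl27 partly inside it. Those for Mrps15, Mrpl53, Mrpl3 and Mrps26 end at its edge, so the stretches are not alike in place. The 100 bases before the start are shown for the 4 members with the largest called falls that had a window, in which no CCGGAAG or its reverse complement stood, with log2 ratios of -0.62, -0.58, -0.57 and -0.57:
Mrpl24 (chr3:87919444-87919543, plus strand): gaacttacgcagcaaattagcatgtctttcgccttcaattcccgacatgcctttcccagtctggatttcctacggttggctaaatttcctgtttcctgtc
Mrps15 (chr4:126046828-126046927, plus strand): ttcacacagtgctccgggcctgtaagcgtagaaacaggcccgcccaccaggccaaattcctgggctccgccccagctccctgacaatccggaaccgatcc
Mrps31 (chr8:22411240-22411339, plus strand): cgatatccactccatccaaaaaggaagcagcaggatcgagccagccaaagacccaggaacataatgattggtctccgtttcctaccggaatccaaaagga
Mrpl14 (chr17:45686249-45686348, plus strand): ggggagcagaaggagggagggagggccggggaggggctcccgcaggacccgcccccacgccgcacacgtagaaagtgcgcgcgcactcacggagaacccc
In the same stretch, 2 of the 24 called members held a match, shown in capitals, with log2 ratios of -0.31 and -0.36:
Mrpl58 (chr11:115403652-115403751, plus strand): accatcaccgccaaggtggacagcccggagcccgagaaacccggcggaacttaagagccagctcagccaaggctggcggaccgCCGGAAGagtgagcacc
Mrps27 (chr13:99344686-99344785, plus strand): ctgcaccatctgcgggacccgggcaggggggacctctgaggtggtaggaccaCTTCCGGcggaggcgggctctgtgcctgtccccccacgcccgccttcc
Of the 13 members that held a match there and were not called, the 4 with the highest ratios are shown (0.11, -0.018, -0.028 and -0.063); they were picked by these ratios, which are therefore a description:
Mrpl53 (chr6:83109008-83109107, plus strand): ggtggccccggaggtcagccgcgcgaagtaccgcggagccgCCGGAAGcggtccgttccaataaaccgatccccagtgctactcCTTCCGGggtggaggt
Mrpl3 (chr9:105053168-105053267, plus strand): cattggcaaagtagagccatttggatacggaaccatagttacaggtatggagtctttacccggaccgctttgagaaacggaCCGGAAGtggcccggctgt
Mrpl27 (chr11:94653691-94653790, plus strand): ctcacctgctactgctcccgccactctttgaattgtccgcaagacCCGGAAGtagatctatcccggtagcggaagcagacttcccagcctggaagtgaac
Mrps26 (chr2:130563657-130563756, plus strand): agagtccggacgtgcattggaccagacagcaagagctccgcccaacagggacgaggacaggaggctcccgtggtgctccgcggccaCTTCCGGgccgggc
The 3 members with an NRF1 palindrome are shown over the 140 bases before the start, the match in capitals:
Mrpl9 (chr3:94443196-94443335, plus strand): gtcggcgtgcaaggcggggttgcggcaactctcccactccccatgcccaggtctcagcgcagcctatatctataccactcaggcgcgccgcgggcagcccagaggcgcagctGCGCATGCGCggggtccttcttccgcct
Mrpl32 (chr13:14613038-14613177, minus strand): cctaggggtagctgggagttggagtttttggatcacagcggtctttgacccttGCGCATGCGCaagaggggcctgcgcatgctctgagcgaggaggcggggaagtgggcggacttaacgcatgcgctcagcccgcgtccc
Mrpl39 (chr16:84735245-84735384, minus strand): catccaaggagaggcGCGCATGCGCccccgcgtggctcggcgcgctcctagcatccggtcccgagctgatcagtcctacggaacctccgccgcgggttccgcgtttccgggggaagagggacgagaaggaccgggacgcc
Mrpl9 and Mrpl32, with log2 ratios of 0.0023 and -0.078, were not called, and Mrpl39 was (-0.53), so the palindrome stood in members of both kinds.

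Many members share a promoter region with a neighbour. A start on the opposite strand, head to head within 500 bases, was found in RefSeq for 23 of 69 members (33.3%), beside 19% of 7497 protein-coding genes with a mean of at least 100. Of the 23 partner entries 6 were called lower in state 3 against state 1, 1 higher and 16 not; the share lower, 26.1%, lay near the 21.7% of genes with a mean of at least 100, and the share higher, 4.35%, below their 20.8%. Mrpl46 and Mrps11, of the large and the small subunit, start 42 bases apart on chromosome 7, and had values of 356, 342 and 341 and of 326, 288 and 283 in states 1 to 3; neither was called. Mrps12 starts 147 bases from Sars2, the mitochondrial seryl-tRNA synthetase, which was called lower (435, 366 and 294), and Mrpl47 308 bases from Ndufb5, a complex I subunit, also called lower (791, 627 and 608), while both members were not called. Mrpl43 starts 116 bases from Twnk, the mitochondrial DNA helicase (675, 653 and 696), which was not called. Mrpl14 and its neighbour Tmem63b, a membrane protein gene whose start lies 131 bases away, went in opposite directions: Tmem63b was called higher in state 3, with 674, 875 and 1066. The RefSeq spans of 20 members overlap another protein-coding gene, Mrpl14 and Tmem63b among them. The libraries were strand-marked, with the strand setting of the counting not given in the sources used here, so reads in such overlaps may be divided between genes.

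The members lie on 17 chromosomes, with 11 on chromosome 11, 8 on chromosome 17 and 7 on chromosome 6. Processed pseudogenes could take reads from their parents: Mrpl48-ps and Mrpl23-ps1 had 23.8 and 18.9 in state 1, 6.58% and 5.02% of the values of Mrpl48 and Mrpl23, and the pair of Mrps36 pseudogenes 0.74 and 2.58. No parent gene of these was called in any comparison between states.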

How the data were processed

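RNA-seq and small RNA-seq libraries were made from sorted cells; per the labels' protocols, RNA was taken up in Trizol and freed of DNA, and RNA-seq used rRNA depletion and dUTP strand marking. The submitters' processing notes list STAR 2.4.1d, RSEM 1.2.30, mm10 and GRCm38 without a role, and the deposited tables' names point to GENCODE M15 and EBSeq. The authors deposited a normalized signal per gene and group (3 RNA-seq or 2 small RNA libraries merged) by a scaling not given in the sources used here. They also deposited a score, a posterior probability from EBSeq, for every one of the 15 ways in which 4 groups can be equal or differ. The pattern order is not spelled out. It was taken as state 3, state 2, state 1, total population, under which 94.4% of 1453 genes with a clear pattern had equal groups closer than unequal ones (90.8% for the next best order).

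For each of 29692 genes the scores of the patterns that set both groups apart were summed and called at 0.95, with the direction from the values, using Python 3.11.15 and pandas 2.3.3. Log2 ratios use a pseudocount of 1. The summing was run on simulated tables in which the set pattern was given nearly all the probability, under the same pattern order. Recovery was thus fixed in advance, and the run checks the arithmetic only. It cannot check the authors' scores or the inferred order. Counting errors take the commonest low value as 1 read and cover counting only. No count test, replicate test or p-value was possible. Whether libraries came from separate cultures is not stated, so the scores may measure technical spread. Levels per coding length were planned and not computed, since no coding lengths were used here; levels are not compared between genes. The members and lists were chosen with earlier results of these data known. Named members were the up to 10 largest called falls and rises per comparison between states and the 3 genes whose symbol and subunit differ; others are named where they complete a count or were singled out after their values were seen. Coordinates and promoter windows come from RefSeq GRCm38.p6, matched by symbol. Alternatives covered the threshold, pseudocount, scaling, pattern order, membership and promoter window.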

Additional observations from a re-analysis of the deposited data

Results flagged for a closer look

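The members were also listed in the small RNA table, which the comparisons above do not use. There 61 of 78 members had a value above the worth of 3 reads in all 4 groups. Their summed value was 504 in state 1, 487 in state 2, 409 in state 3 and 497 in the total population, which is 0.216%, 0.224%, 0.171% and 0.216% of the protein-coding signal of that table. As a share of the whole column the values were instead 0.00983% in state 1, 0.0142% in state 2 and 0.0157% in state 3, beside 0.0120% in the total population. In the authors' deposited table the score for any difference among the groups was at least 0.95 in 1 of 78 members, Mrpl21, beside 1.36% of protein-coding genes and 1.83% of all features of the small RNA table. Its values were 9.37 in state 1, 6.95 in state 2, 1.97 in state 3 and 0.74 in the total population, the last of which is worth 1 read and lies under the 3-read limit. RefSeq places Mir6984 within the span of Mrpl21, and its part in these values was not tested.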

How the results depend on the processing

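With 1 value per group, leaving out libraries could not be run. No paired analysis was possible because the deposited columns merge the replicates of each group. At a threshold of 0.99 the members called lower numbered 10 from state 1 to 2, 2 from state 2 to 3 and 14 between state 3 and the total population. In the other counts, under the thresholds 0.99 and 0.90, the exchanged pattern order and the membership with the other symbols added and Mrps36 removed, the number of calls stayed within 1.5 times. Medians kept their sign under every pseudocount, scaling and membership tried, and moved by under 0.1, which is more than some of them. Scaling to the column total gave -0.10 in place of -0.17 from state 1 to 2 and 0.035 in place of 0.080 between state 1 and the total population, scaling to the upper quartile -0.13 in place of -0.078 from state 2 to 3, and a column total without the abundant Gm26917, added after seeing the data, -0.064 in place of -0.099 between state 2 and the total population. Quantile normalization shifted the median gene (mean of at least 5) to -0.10 for state 3 against state 1, beside a members' median of -0.28, a gap of -0.18 in place of -0.23 under the column total, and Mrps36 then had -0.062 in place of 0.041. Exchanging state 1 and the total population in the pattern order left 11 of 16 calls from state 1 to 2 (Mrpl10, Mrpl45, Mrpl49, Mrps14 and Mrps35 were lost); from state 1 to 3 it ended 4 (Mrpl10, Mrpl49, Mrps24 and Mrps35) and added Mrpl33; the cause was not tested. In the 100 bases before the start alone, which leave out both the bases further upstream and the 50 after the start, ETS letters stood in 21.7% of members (12.6% of protein-coding genes with a mean of at least 100), YY1 in 1.45% (1.03%), SP1 in 36.2% (55.7%) and the E-box in 2.9% (5.96%); 8 of the 12 members with YY1 letters held them in the 50 bases after the start.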
